A study of Homo sapiens with 12 samples.

Results

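Motor neuron identity and cholinergic genes were described here in human neurons of 2 kinds, motor neurons (iMNs) and NGN2-induced neurons (i3Ns). The 9 genes were picked by name, and they are the transcription factors *MNX1*, *ISL1*, *ISL2*, *LHX3* and *LHX4* and the acetylcholine genes *CHAT*, *SLC18A3*, *SLC5A7* and *ACHE*. All 9 were listed in both deposited tables, out of 19329 genes listed in either table and 16093 listed in both. The iMNs came from 1 human iPSC line that carries Td-Tomato under the HB9 promoter, and cells with that reporter were sorted before plating. The i3Ns came from H1, an established human embryonic stem cell line that is labelled here as giving cortical neurons, after induced expression of the transcription factor NGN2. Cells of both kinds received a lentivirus with either a scrambled shRNA (SCR) or an shRNA against *SMN1* and *SMN2* (*SMN*-KD), and RNA was taken after 12 days of knockdown. Each of the 4 groups had 3 libraries, 12 in all, made from total RNA depleted of ribosomal RNA.

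The value used for each gene is its mean normalized count, which the authors averaged over the 6 libraries of a cell type, SCR and *SMN*-KD together. Each gene therefore has 1 value in iMNs and 1 in i3Ns, with no spread between libraries, and no test between them was possible. The response of these genes to *SMN*-KD, and the level of *SMN1* and *SMN2* in each library, were not analysed here. The mean normalized counts summed to 4.33e+07 in the iMN table (16406 genes) and 4.50e+07 in the i3N table (19016 genes), and total counts per library are not known here. The lowest value listed was 7.73 in iMNs and 1.37 in i3Ns. Genes with very low values could therefore be listed in i3Ns alone, and counts of listed genes are not alike. Because the tables had been normalized separately, levels set side by side are given in ppm, with each table's sum set to 1000000. Cell type, stem cell line, differentiation protocol and table cannot be told apart in any difference between them. In bulk RNA, fewer cells of a type and less RNA per cell cannot be told apart either.

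Motor neurons are specified in the ventral neural tube by homeodomain factors. ISL1 and LHX3 join with the cofactor LDB1 in a complex that turns on motor neuron genes, and MNX1, also called HB9, holds interneuron genes off. The same factors are not confined to motor neurons, since ISL1 is also found in sensory neurons and LHX3 and LHX4 in V2a interneurons of the spinal cord. Motor neurons signal to muscle with acetylcholine, which CHAT makes, SLC18A3 loads into vesicles and ACHE breaks down, after which SLC5A7 takes the choline back up.

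All 5 identity factors had higher levels in i3Ns than in the sorted iMNs. Together they came to 74.3 ppm in iMNs and 625.7 ppm in i3Ns, 8.42 times as much. The acetylcholine genes summed to 457.4 ppm in iMNs and 272.8 ppm in i3Ns, a difference that came mostly from *SLC5A7*, while *CHAT* and *ACHE* were nearly level. Of the 9 genes, 5 were at least 2-fold higher in i3Ns, as were 10.1% of the 16093 genes listed in both tables. In the opposite direction, 1 of the 9 was at least 2-fold higher in iMNs, as were 14.5% of all genes. The remaining 3 differed by less than 2-fold.

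**Figure D1:**
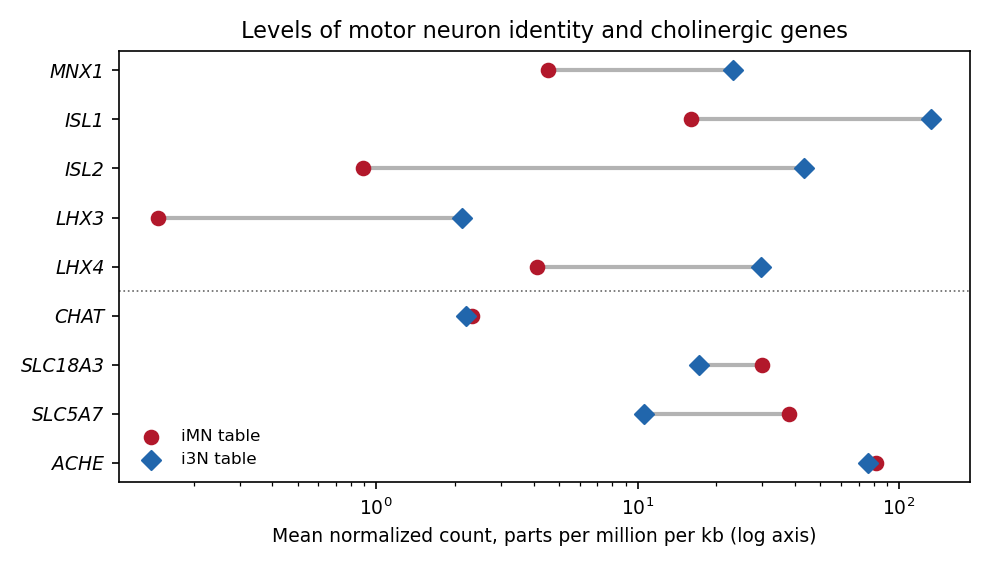
Level of each gene in ppm of the table's summed mean normalized counts, per kilobase of transcript, on a log axis. Circles are iMNs and diamonds are i3Ns, 1 value each over 6 libraries and with no error bars. The 5 identity factors above the dotted line lie further right in i3Ns, and *CHAT* and *ACHE* nearly coincide.

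*MNX1* (ENSG00000130675) encodes the HB9 protein whose promoter drove the sorting reporter in iMNs. In GRCh38 it spans 156994051 to 157010663 of chromosome 7 (minus strand). Its mean normalized count was 429.7 in iMNs (9.92 ppm) and 2279 in i3Ns (50.6 ppm), so it was 5.10-fold higher in i3Ns. The iMNs had been sorted for the activity of this promoter, so its presence there is no independent check of the cell type. Per kilobase of its MANE Select transcript, the reference transcript of the gene, *MNX1* exceeded 38.3% of 14276 genes in iMNs and 81.7% of 15537 genes in i3Ns.

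*ISL1* (ENSG00000016082) and *ISL2* (ENSG00000159556) encode related LIM homeodomain factors of newly born motor neurons. *ISL1* lies on the plus strand of chromosome 5 (51383448 to 51394730) and *ISL2* on that of chromosome 15 (76336773 to 76342475). *ISL1* had a mean normalized count of 1663 in iMNs (38.4 ppm) and 14299 in i3Ns (317.4 ppm), a difference of 8.27-fold. In i3Ns it had the highest level per kilobase of the 9 genes, above 98.4% of genes. *ISL2* had 70.6 in iMNs (1.63 ppm) and 3558 in i3Ns (79.0 ppm), 48.5-fold more and the widest difference of the 9. Within a table, the ratio of *ISL1* to *ISL2* does not depend on how the tables are scaled. In mean normalized counts this ratio was 23.6 in iMNs and 4.02 in i3Ns.

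*LHX3* (ENSG00000107187) and *LHX4* (ENSG00000121454) encode LIM homeodomain factors of early motor neurons, and *LHX3* is later kept in those that supply the axial muscles. *LHX3* is on the minus strand of chromosome 9 (136196250 to 136205128) and *LHX4* on the plus strand of chromosome 1 (180230264 to 180278984). The mean normalized count of *LHX3* was 15.1 in iMNs (0.348 ppm), where the lowest value listed for any gene was 7.73, and 229.7 in i3Ns (5.10 ppm). The 14.7-fold difference of *LHX3* thus rests on a low value. *LHX4* was the more abundant paralog in both tables, with 1040.2 in iMNs (24.0 ppm) and 7819 in i3Ns (173.6 ppm), 7.23-fold higher. Per kilobase, *LHX4* stood 28.2-fold above *LHX3* in iMNs and 13.9-fold in i3Ns. The 3′ part of the *LHX4* gene overlaps *ACBD6* on the opposite strand, which had 1424 in iMNs and 1370.5 in i3Ns. Whether strand was used in the counting is not given in the sources used here, and reads of the overlap were not examined.

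The 250 bases before the start of *ISL1*, *ISL2* and *MNX1* are shown because i3Ns are made with NGN2, a basic helix-loop-helix factor, and factors of that class bind the letters CANNTG. Of the identity factors, *ISL1* was the most abundant, *ISL2* differed most between the cell types and *MNX1* least. Sequences are from RefSeq on GRCh38.p14, written in the direction of transcription, with each CANNTG in capitals. The windows are chr5:51383198-51383447 (plus strand), chr15:76336523-76336772 (plus strand) and chr7:157010664-157010913 (minus strand).
*ISL1*: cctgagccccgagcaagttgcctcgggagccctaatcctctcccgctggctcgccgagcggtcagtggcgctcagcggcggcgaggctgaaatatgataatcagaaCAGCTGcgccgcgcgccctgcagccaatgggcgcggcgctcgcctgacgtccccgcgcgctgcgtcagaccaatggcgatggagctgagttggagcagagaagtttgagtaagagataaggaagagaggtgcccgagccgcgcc
*ISL2*: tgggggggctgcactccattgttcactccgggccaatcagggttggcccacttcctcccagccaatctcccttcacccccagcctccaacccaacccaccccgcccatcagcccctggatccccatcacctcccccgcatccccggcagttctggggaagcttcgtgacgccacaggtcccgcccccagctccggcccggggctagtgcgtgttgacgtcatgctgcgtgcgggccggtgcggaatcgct
*MNX1*: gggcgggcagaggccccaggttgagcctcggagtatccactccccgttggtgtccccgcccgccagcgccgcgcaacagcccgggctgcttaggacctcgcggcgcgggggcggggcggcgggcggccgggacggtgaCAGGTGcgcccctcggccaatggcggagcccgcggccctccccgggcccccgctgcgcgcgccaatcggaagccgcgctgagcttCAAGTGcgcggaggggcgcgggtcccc

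All 9 genes matched a RefSeq window, and the one nearest the annotated start of the gene was used. For *ACHE* it lay 845 bases from that start, within the gene. For *CHAT* it lay before *SLC18A3*, which the MANE Select transcript of *CHAT* does not span. CANNTG, which reads the same on both strands, was present in 2 of the 5 identity windows (*ISL1* and *MNX1*) and in 3 of the 4 acetylcholine windows (*CHAT*, *SLC18A3* and *ACHE*). This makes 5 of 9, where 61.8% of 35116 windows of the same length hold it. *CHAT* and *ACHE* have 3 windows each, and only the nearest holds CANNTG, so these counts depend on the window used. *ISL2*, with the widest difference between the cell types, has 0 in its window. Narrower forms of CANNTG were also searched. CAGATG, on either strand, was in 0 identity windows and 2 acetylcholine windows, where 12.2% of all windows hold it. CATATG was in 0 of 9 (2.63% of all windows) and CAGCTG in 1 (14.0%). The homeodomain letters TAAT were in 3 of 9 (47.4%) and TAATTA in 0 (4.35%). The motifs were chosen after the levels had been seen, and a match is not a binding site.

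*CHAT* (ENSG00000070748), which encodes the enzyme that makes acetylcholine, had nearly the same level in both cell types. Its mean normalized count was 532.9 in iMNs (12.3 ppm) and 527.1 in i3Ns (11.7 ppm). Per kilobase it exceeded only 27.8% of genes in iMNs and 33.0% in i3Ns, and it was the lowest of the 4 acetylcholine genes in each. *SLC18A3* (ENSG00000187714), the vesicular acetylcholine transporter, had 3115 in iMNs (71.9 ppm) and 1865 in i3Ns (41.4 ppm), 1.74-fold more in iMNs. *CHAT* (49609095 to 49667942) and *SLC18A3* (49610310 to 49612720) share the plus strand of chromosome 10 and form one cholinergic locus. The single exon of *SLC18A3* lies in intron 1 of 1 of the 12 annotated *CHAT* transcripts and overlaps no *CHAT* exon. Its level per kilobase was 12.8 times that of *CHAT* in iMNs and 7.77 times in i3Ns.

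*SLC5A7* (ENSG00000115665), the choline transporter of cholinergic endings, was the only member at least 2-fold higher in iMNs. It spans 107986523 to 108013994 of chromosome 2 (plus strand). Its mean normalized count was 8460.5 in iMNs (195.3 ppm) and 2472 in i3Ns (54.9 ppm), a difference of 3.56-fold. *ACHE* (ENSG00000087085), on the minus strand of chromosome 7 (100889994 to 100896974), encodes the esterase that ends the signal and is also made by cells that do not use acetylcholine. It had 7708 in iMNs (177.9 ppm) and 7425 in i3Ns (164.8 ppm). *ACHE* was abundant in both, above 95.8% of genes per kilobase in iMNs and 96.3% in i3Ns, and it differed by 1.08-fold.

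Ordered by level per kilobase within iMNs, the genes ran *ACHE* (81.9 ppm per kilobase), *SLC5A7* (37.8), *SLC18A3* (29.8), *ISL1* (16.0), *MNX1* (4.54), *LHX4* (4.11), *CHAT* (2.32), *ISL2* (0.890) and *LHX3* (0.146). The first 3 places were all taken by acetylcholine genes. Within i3Ns the order was *ISL1* (132.6 ppm per kilobase), *ACHE* (75.9), *ISL2* (43.1), *LHX4* (29.7), *MNX1* (23.2), *SLC18A3* (17.2), *SLC5A7* (10.6), *CHAT* (2.21) and *LHX3* (2.14). Here 4 of the first 5 places went to identity factors. Close neighbours, such as *MNX1* and *LHX4* in iMNs or *CHAT* and *LHX3* in i3Ns, could not be set against a spread. With the union of annotated exons as the length, *MNX1* and *LHX4* changed places in iMNs, and *MNX1* and *SLC18A3* in i3Ns.

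Ratios of a pair of genes taken within each table need no scaling between tables. They restate the same 2 values a gene and add no separate evidence. *ISL1* was 3.12 times *CHAT* in mean normalized counts in iMNs and 27.1 times in i3Ns. For *MNX1* over *CHAT* the ratio was 0.806 in iMNs and 4.32 in i3Ns. *SLC5A7* over *CHAT* went the other way, with 15.9 in iMNs and 4.69 in i3Ns, while *ACHE* over *CHAT* was 14.5 and 14.1. Summed per kilobase, the identity factors came to 0.169 times the acetylcholine genes in iMNs and 2.18 times in i3Ns.

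Set among all genes, the identity factors lay far out on the side of i3Ns. The log2 ratio of iMNs over i3Ns was -2.35 for *MNX1*, -3.05 for *ISL1*, -5.60 for *ISL2*, -3.87 for *LHX3* and -2.85 for *LHX4*. Between 0.186% (*ISL2*) and 2.33% (*MNX1*) of the 16093 genes had a lower ratio. The acetylcholine genes had log2 ratios of 0.07 (*CHAT*), 0.11 (*ACHE*), 0.80 (*SLC18A3*) and 1.83 (*SLC5A7*). The median was -2.35 over the 9 members and -0.01 over all genes.

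**Figure D2:**
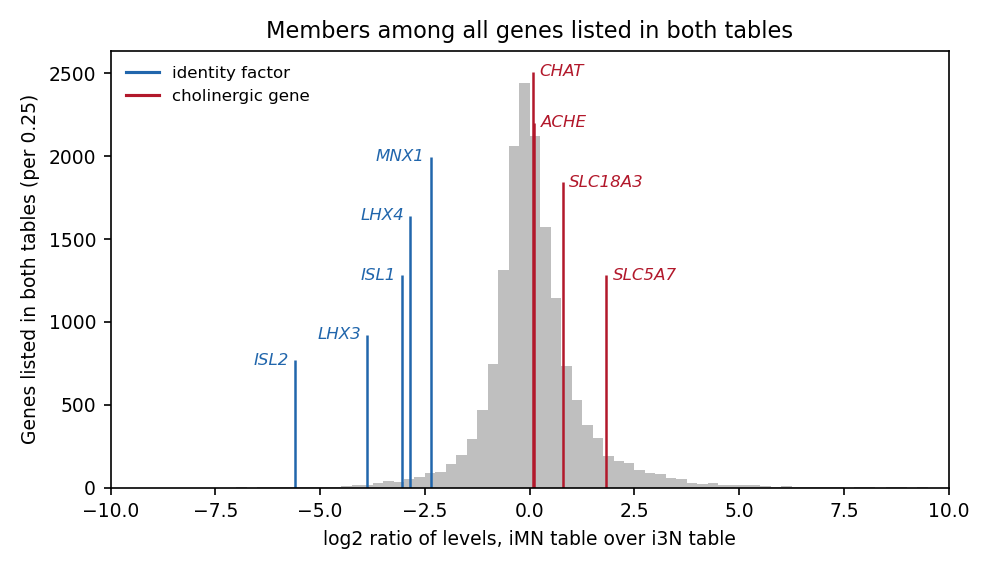
Histogram of the log2 ratio of levels, iMNs over i3Ns, for the 16093 genes listed in both tables, in steps of 0.25. Lines mark the 9 members, their heights having no meaning, and the most extreme genes lie outside the axis. The 5 identity factors lie between -5.60 and -2.35, and the 4 acetylcholine genes lie between 0.07 and 1.83.

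Other genes of the pathway were taken from lists of related genes and did not all follow the members. Of 8 LIM cofactors and Onecut factors, 4 were at least 2-fold higher in i3Ns and 2 in iMNs, with a median log2 ratio of -0.86. The LIM-only proteins *LMO1* (3.15 ppm in iMNs and 15.0 ppm in i3Ns) and *LMO3* (7.04 and 25.3 ppm) were among the former. *LDB2*, a paralog of the cofactor gene *LDB1*, had 13.5 ppm in iMNs and 3.17 ppm in i3Ns. *LDB1* itself was listed at 140.4 and 231.3 ppm, a difference under 2-fold.

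Of the 6 factors of motor neuron progenitors, 4 were at least 2-fold higher in iMNs and 2 in i3Ns. Among the 4, *NKX2-2* rested on low mean normalized counts, 13.0 in iMNs and 1.83 in i3Ns. *OLIG2*, which marks the progenitors of motor neurons, had 0.477 ppm in iMNs and 8.04 ppm in i3Ns, and *NKX6-1* had 9.13 and 33.9 ppm. *NKX6-2* went the other way, with 13.8 ppm in iMNs and 1.71 ppm in i3Ns. *NEUROG2*, which encodes NGN2, had 6.08 ppm in iMNs and 2.53 ppm in i3Ns, and whether the transgene's transcript is counted there is not given in the sources used here.

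Among 9 genes of motor columns and pools, 3 were at least 2-fold higher in iMNs and 2 in i3Ns. *MECOM*, a gene of medial column motor neurons, stood at 26.7 ppm in iMNs and 0.282 ppm in i3Ns. *ALDH1A2*, which makes retinoic acid in limb-level motor neurons, had 4.18 and 0.732 ppm. *ESRRB*, an orphan nuclear receptor, had 0.743 ppm in iMNs and 7.47 ppm in i3Ns.

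Of 6 further genes that handle acetylcholine or choline, 3 were at least 2-fold higher in i3Ns and 2 in iMNs. *BCHE*, a second enzyme that splits acetylcholine, had 1.69 ppm in iMNs and 24.0 ppm in i3Ns, whereas *ACHE* was nearly level. *PRIMA1*, which anchors ACHE in neuronal membranes, had 9.35 ppm in iMNs and 0.641 ppm in i3Ns, and each table lists it under 2 identifiers with similar values, so its level is uncertain. *SLC10A4*, a vesicle protein of cholinergic neurons, had 5.16 and 22.9 ppm.

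**Figure D3:**
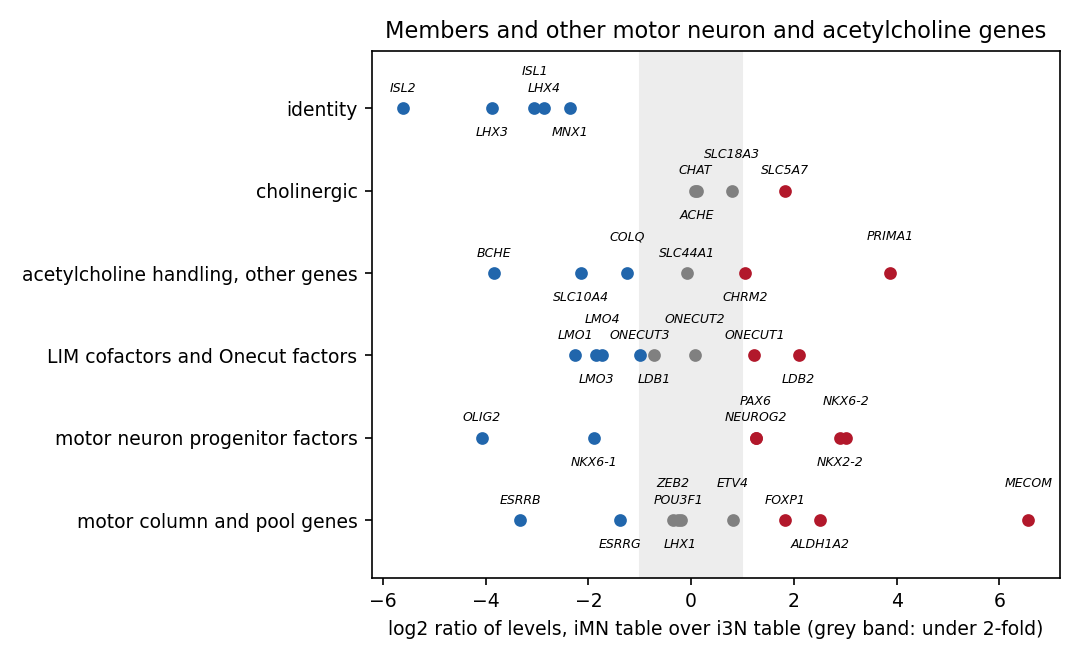
Log2 ratio of levels, iMNs over i3Ns, for the members in the top 2 lines and for 4 further lists below, 1 point a gene. Points in the grey band differ by less than 2-fold, blue points are higher in i3Ns and red points are higher in iMNs. Every further list has points on either side, whereas the identity line has all 5 on the left.

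Markers of other cell types also differed between the tables, and their part in the levels of the members was not tested. The sum of 5 dorsal spinal and sensory neuron genes was 12.9 ppm in iMNs and 321.6 ppm in i3Ns. Most of it in i3Ns was *POU4F1*, a factor of sensory neurons, at 291.5 ppm against 0.559 ppm in iMNs. Of the 5 genes, 3 were at least 2-fold higher in i3Ns and 1 in iMNs. The latter was *LBX1*, a factor of dorsal spinal interneurons, with 4.78 ppm in iMNs and 0.0515 ppm in i3Ns, and *RUNX1* differed by less than 2-fold. The 3 cranial motor neuron genes summed to 82.5 ppm in i3Ns and 15.4 ppm in iMNs. Bulk values do not show which cells held which transcript.

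The sum of the 11 genes of ventral spinal interneurons was 32.0 ppm in iMNs and 47.4 ppm in i3Ns, and of the 5 found in both cell types, 2 were at least 2-fold higher in each cell type. *SOX14*, a factor of V2 interneurons, had 17.0 ppm in iMNs and 0.128 ppm in i3Ns. *SIM1*, a factor of V3 interneurons, had 0.589 ppm in iMNs and made up most of the sum in i3Ns, at 41.9 ppm. Genes of GABA and glycine neurons summed to 13.3 ppm in iMNs and 3.78 ppm in i3Ns, but of the 3 found in both cell types, 2 were at least 2-fold higher in iMNs and 1 in i3Ns. *GAD1*, which makes GABA, had 9.57 ppm in iMNs and 0.229 ppm in i3Ns. *SLC32A1*, the vesicular transporter of GABA and glycine, had 0.906 ppm in iMNs and made up most of the sum in i3Ns, at 3.44 ppm.

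Of 8 cortical glutamatergic genes, 5 were listed in iMNs and 7 in i3Ns, with sums of 196.2 and 372.0 ppm. Of the 5 listed in both tables, 3 were at least 2-fold higher in i3Ns and 2 differed by less than 2-fold. These 2 made up nearly all of the sum in iMNs, and their mean normalized counts in iMNs and i3Ns were 6662 and 5354 for *CUX1* and 1734 and 2033 for *CUX2*. *SLC17A7*, a vesicular glutamate transporter, had 1.16 ppm in iMNs and 144.1 ppm in i3Ns, and no other transporter of that kind was in the list. The mean normalized count of *TBR1* was 10.2 in iMNs and 1801 in i3Ns. *EMX2*, a factor of the forebrain, was not listed in iMNs and had 3.08 ppm in i3Ns, and *NEUROD6* was listed in neither. The 3 forebrain cholinergic genes were not listed in iMNs and summed to 0.221 ppm in i3Ns. Their mean normalized counts in i3Ns, at most 4.09 (*GBX1*), lay under the lowest value listed in iMNs (7.73), so this contrast is uninformative. Dividing cell genes came to 1.17 ppm in iMNs and 18.5 ppm in i3Ns, mesenchymal genes to 42.2 and 117.2 ppm, and pluripotent cell genes were not listed in iMNs and came to 0.479 ppm in i3Ns. Of 5 glial genes, *GFAP*, *AQP4* and *SOX10* were listed in neither table, and *MBP* made up all 7.60 ppm in iMNs and most of the 21.4 ppm in i3Ns. Skeletal muscle genes were not listed in iMNs and came to 0.0379 ppm in i3Ns, again from a value under the lowest listed in iMNs. The 5 genes of all neurons summed to 5031 ppm in iMNs and 3923 ppm in i3Ns. Of these, *SNAP25* had 425.4 ppm in iMNs and 107.6 ppm in i3Ns, 3.95-fold more in iMNs. The other 4 differed by less than 2-fold.

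Because the identity factors were lower under the motor neuron label, the labels of the tables were checked on the *HOX* genes, which mark the level of the hindbrain and spinal cord. This list was added after the values had been seen. Of 39 *HOX* genes, 27 were listed in iMNs with a sum of 2609 ppm, and 22 were listed in i3Ns with a sum of 22.2 ppm. Of the 18 listed in both tables, 17 were at least 2-fold higher in iMNs and none in i3Ns. The mean normalized count of *HOXB8* was 11557 in iMNs and 1.85 in i3Ns, near the lowest value listed there (1.37). Some of the 22, such as *HOXB8*, lay in i3Ns under the lowest value listed in iMNs (7.73), so the 2 counts of listed genes are not alike.

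**Figure D4:**
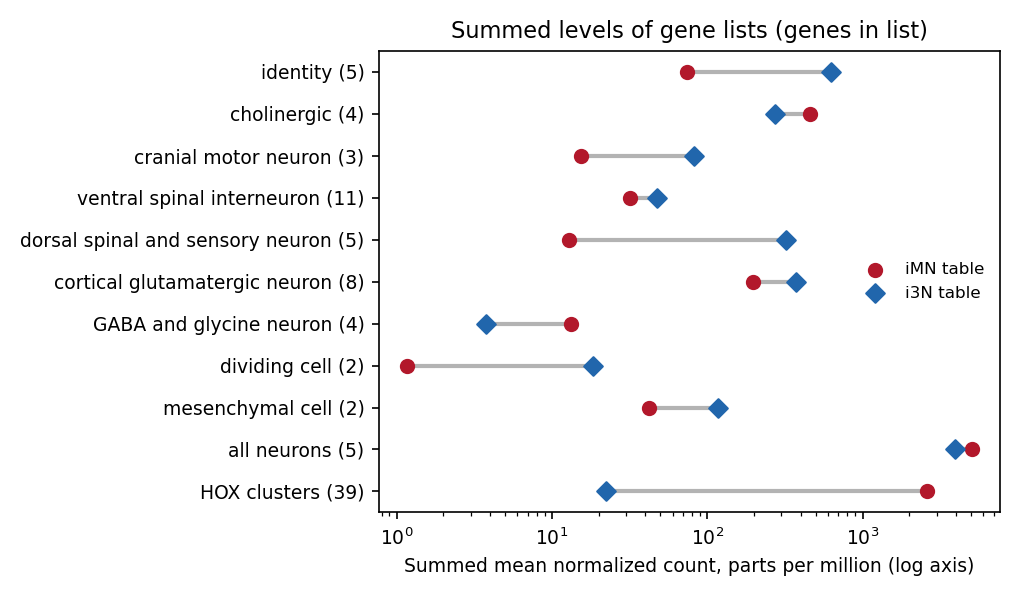
Summed level of the members and of 9 other gene lists in ppm on a log axis, circles for iMNs and diamonds for i3Ns, with the number of genes in the list in brackets. Genes that a table does not list add nothing to its sum. The identity factors (74.3 and 625.7 ppm) and the *HOX* genes (2609 and 22.2 ppm) differ in opposite directions.

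The protein-coding genes whose pair of levels lay nearest to that of *MNX1* were *MAML2*, *COL5A2* and *CHN2*, at distances of 0.14, 0.18 and 0.25 in log2 ppm among 14502 genes. For *CHAT* they were *MED19*, *CHCHD1* and *C8orf58*, at 0.01, 0.02 and 0.03. These distances rest on only 2 points a gene.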

How the data were processed

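RNA-seq was made from total RNA depleted of ribosomal RNA and sequenced as paired-end reads. Per the labels and the study's methods, adapters were trimmed with fastp, transcripts were quantified with Salmon and genes were analysed with DESeq2. The versions, the transcript annotation and the filter on low counts are not given in the sources used here. The deposited value used here is a signal: the authors divided counts by DESeq2 size factors and took the mean of the 6 libraries of a cell type, so it is no count and depth per library is unknown. The other deposited columns hold the authors' own comparison of *SMN*-KD with SCR (fold change, standard error and p-values) and were not used.

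Each table was scaled to a sum of 1000000, genes were matched between tables on the Ensembl identifier, and ratios were taken on the log2 scale with no pseudocount (Python 3.11.15, pandas 2.3.3). A gene listed in 1 table only has no ratio. A symbol with several identifiers was represented by one listed in both tables (a preference added after the values had been seen, which touches no member), then by one in GENCODE release 44, then by the highest value. Lengths and coordinates are those of GENCODE release 44 on GRCh38 (hg38, the build in the submitters' processing notes), and lengths are of MANE Select transcripts. The ratio step was tested on simulated data. Members were chosen by name, and the members and lists were chosen with earlier results of these data known. List genes were named where either table gave 100 or more and the ratio passed 2-fold, at most 3 a list, together with genes a sentence turns on. Nearest genes were taken by Euclidean distance over the 2 log2 levels. Some list genes are counted in their lists but not reported here by name.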

Additional observations from a re-analysis of the deposited data

How the results depend on the processing

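No paired analysis was possible because the deposited values used here are means over the libraries of a cell type, and for the same reason no library could be left out. The number of members at least 2-fold lower in iMNs was 5. It stayed at 5 under fold thresholds of 1.5 and 4, which 19.6% and 3.22% of all genes passed in that direction. It was also 5 under 3 other scalings and with a pseudocount of 1. Summing the identifiers of a symbol, or filters on the mean normalized count at 10 and 100, left it at 5 as well. Summing and filtering could not change any count of members, since each has 1 identifier and passes 100 in at least 1 cell type. Each scaling shifts all log2 ratios alike, by little beside the -2.35 of *MNX1*, the nearest of the 5 to the threshold. The number at least 2-fold higher in iMNs was 1 under the same scalings, pseudocount, summing and filters, but changed with the fold threshold. It was 2 at a threshold of 1.5, where *SLC18A3* joined *SLC5A7*, and 0 at a threshold of 4. Of all genes, 23.2% and 5.75% passed these thresholds in that direction. Across the scalings, the pseudocount and the summing, each member's log2 ratio moved by between 0.07 and 0.14, the widest being that of *LHX3*, and none changed sign. The ratio of *CHAT* ranged from 0.02 to 0.08 and that of *ACHE* from 0.05 to 0.12. With the union of exons as the length, 7 of 9 genes kept their place in the order within each table, and all 9 did with the longest transcript. How far the levels vary between libraries is not known here, and the lowest values, *LHX3* and *ISL2* in iMNs, are those that low depth would touch most.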
